A study of Mus musculus with 2 samples.

Results

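The Ifi200 genes are a cluster of neighbouring mouse genes that encode PYHIN proteins, and 7 of them were followed by their gene symbols: Ifi203, Ifi204, Ifi205, Ifi211, Ifi213, Mndal and Aim2. They are 7 of the 31053 genes listed for each library and 7 of the 13 Ifi200 genes listed. The cells were monocytes and macrophages from mouse skin wounds, taken on day 6 after injury and profiled as single cells with 10x Chromium 3′ libraries. The non-diabetic group was 1 library of wound cells from 2 pooled non-diabetic mice, and the diabetic group was 1 library from 2 pooled diabetic mice. The labels name neither the strains nor the diabetic model, give no age, and speak of the pooled mice by strain, so strain and diabetes cannot be told apart. Each group is 1 library, so differences between them could not be tested and have no check by replicates.

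PYHIN proteins typically join a pyrin domain, which binds other pyrin domains, to a HIN domain, which binds DNA. Aim2 is the best understood: on cytosolic double-stranded DNA it recruits the adaptor Pycard (ASC) and caspase-1, which cleaves the precursor of interleukin-1 beta and opens gasdermin D pores. Ifi204 has been placed upstream of Tmem173 (STING), the adaptor through which DNA in the cytosol leads to type I interferon production. Many genes of the family are themselves induced by interferon in macrophages.

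The cells described had at least 500 detected genes and under 10% mitochondrial UMIs (unique molecular identifiers, which count each captured RNA molecule once). They numbered 1123 of 2026 non-diabetic and 1755 of 2214 diabetic barcodes, with 15429273 and 30435047 UMIs and medians of 14079 and 16314 UMIs per cell. Mitochondrial UMIs reached 10% or more in 43.9% of all non-diabetic barcodes and in 20.2% of all diabetic ones. Only 1 barcode was shared by the kept cells of both libraries. The 6 mononuclear phagocyte markers were all detected, Lyz2 at 11864 CPM (counts per 1000000 UMIs) in the non-diabetic and 14315 CPM in the diabetic library. The 8 classical monocyte markers summed to 5306 and 2896 CPM and the 10 macrophage markers to 4168 and 8853 CPM. Of the markers of other cell types, all 8 neutrophil markers had UMIs and together were at 284 CPM in the non-diabetic and 4650 CPM in the diabetic library, mostly S100a8, while 8 dendritic cell markers were at 265 and 36.4 CPM. The 6 fibroblast markers were at 238 and 18.0 CPM, B cell markers at 59.4 and 47.0 CPM, mostly Ighm, and endothelial markers at 27.0 and 42.0 CPM. T or NK cell, mast cell, erythroid and keratinocyte markers each summed to under 3 CPM in both libraries, and Cd3e, Ms4a1, Krt5, Krt1, Krt6a, Krt16 and Dsp had no UMI. Without the clusters led by dendritic cell and neutrophil markers (8 and 14 below) the log2 ratio of the summed members, given below as -1.73, was -1.87. Cluster 14 held only 13 diabetic cells. Cluster 3, with 310 diabetic cells and S100a8, S100a9 and Mmp8 at 2-fold or more, was kept. S100a8 was found in 76.0% of diabetic cells, so the neutrophil marker difference was not removed. Its part and that of the other marker differences were not tested.

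All 13 Ifi200 genes lie within 681 kb of chromosome 1 (build mm10, annotation GENCODE M21), from base 173350879 to 174031810. Aim2 is at one edge, on the plus strand from 173350879 to 173466040. The other 6 members are on the minus strand: Ifi213 from 173566283 to 173599274, Ifi204 from 173747293 to 173766943, Mndal from 173849126 to 173942491, Ifi211 from 173896345 to 173913046, Ifi203 from 173920407 to 173942672, and Ifi205 from 174011998 to 174031810. The annotated span of Mndal overlaps Ifi211 and Ifi203 on the same strand, so reads there cannot be assigned by position alone.

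The promoters are shown because 5 members carry the same short element close to an annotated start. RefSeq promoter windows (GRCm38.p6, 250 bases before to 50 bases after the start) were found for 6 of the 7 members, and Ifi204 is not in that table. The core of the interferon-stimulated response element, searched as GAAANNGAAA on both strands, was present in 6 of the 8 windows of these genes, covering 5 of the 6, against 3.44% of all 32851 windows. In Ifi203, Mndal, Ifi213 and Ifi211 the element began 35, 36, 73 and 37 bases before the start, and in Ifi205 134 bases before it. For Ifi203 this refers to an inner RefSeq start. The window at its outer start, at the edge of its GENCODE span, held no match. The core is in capitals, within 30 bases of the gene's own strand:
Ifi203: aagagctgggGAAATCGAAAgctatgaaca
Mndal: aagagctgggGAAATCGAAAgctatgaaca
Ifi213: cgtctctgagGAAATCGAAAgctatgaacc
Ifi211: caaagccaggGAAATTGAAAgctatgaacg
Ifi205: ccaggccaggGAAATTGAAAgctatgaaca
These lie at chr1:173942508-173942537, chr1:173880204-173880233, chr1:173599326-173599355, chr1:173913064-173913093 and chr1:174031870-174031899, all on the minus strand. The 30 bases of Ifi203 and Mndal are identical. Mndal and Ifi205 each held another match on the opposite strand, not shown. The RefSeq starts used for Mndal and for Aim2 lie well inside the GENCODE spans given above, not at their edges. A longer form, GAAATNGAAAGC, overlaps the core and was built from the letters that the 5 members printed above have in common. Their own matches to it were thus fixed in advance. It was found in 11 of the 32851 windows (0.0335%), of which 5 belong to these members and 3 to other Ifi200 genes.

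Aim2 held no match to the core in its window. The interferon-gamma activated site, searched as TTCNNNGAA, was in 8.30% of all windows and in none of the 6 members. A match describes letters only, and no match says only that these letters are not in this window. The Aim2 stretch printed below runs from 150 to 34 bases before its start, those of Ifi203 and Ifi211 from 150 to 1. Their cores begin 35 and 37 bases before the start, so most of those positions are not printed for Aim2. The lack of a match in Aim2 refers to the whole window. The stretches upstream of Ifi203 (chr1:173942493-173942642, minus strand), Ifi211 (chr1:173913047-173913196, minus strand) and Aim2 (chr1:173420454-173420570, plus strand) are printed to set the genes with and without the core side by side, with the core in capitals:
Ifi203: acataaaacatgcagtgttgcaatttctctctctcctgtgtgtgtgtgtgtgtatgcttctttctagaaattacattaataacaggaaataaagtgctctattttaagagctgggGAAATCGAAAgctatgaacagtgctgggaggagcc
Ifi211: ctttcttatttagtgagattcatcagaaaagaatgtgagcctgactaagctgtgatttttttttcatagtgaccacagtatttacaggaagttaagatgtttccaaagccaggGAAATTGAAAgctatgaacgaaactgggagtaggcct
Aim2: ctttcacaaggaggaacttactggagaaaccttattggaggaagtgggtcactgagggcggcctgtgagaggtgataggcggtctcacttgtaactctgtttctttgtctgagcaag

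**Figure D1:**
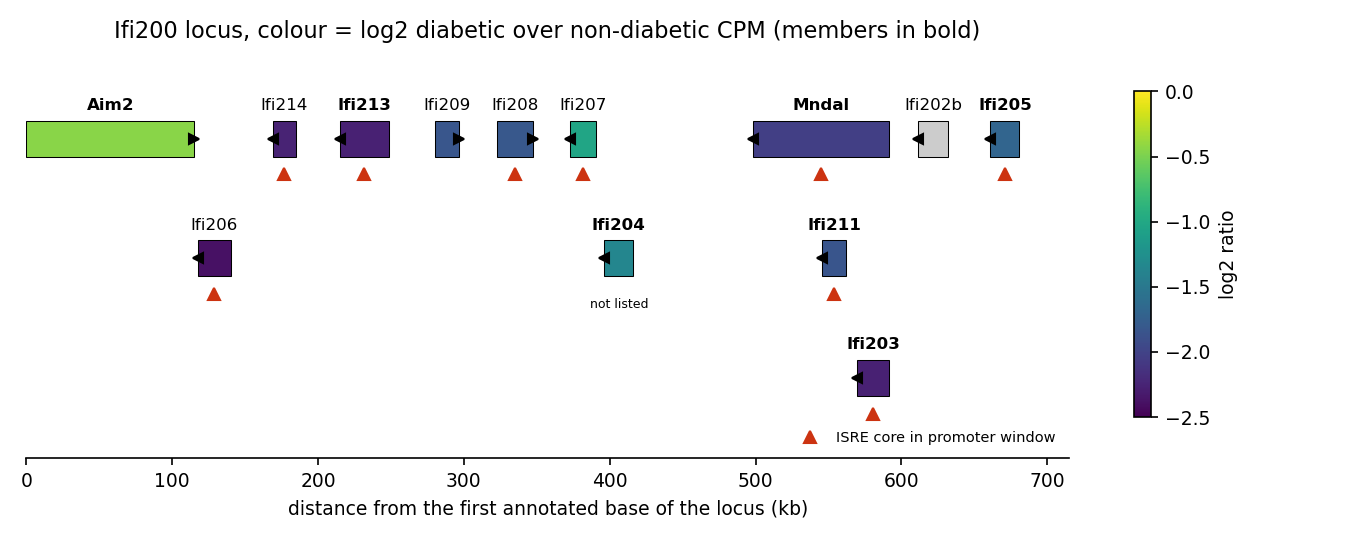
The 13 Ifi200 genes along the locus, with distance from its first annotated base in kb on the x axis, black arrowheads for the direction of transcription and colour for the log2 ratio of diabetic over non-diabetic CPM (Ifi202b, with 1 and 5 UMIs, is grey). Red triangles mark genes with the GAAANNGAAA core in a RefSeq promoter window, which 5 members and 4 other genes have, Aim2 does not, and Ifi204 is not listed.

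How far a read can be assigned to a single member differs between them. Within the last 500 bases of annotated transcripts, where 3′ reads fall, exact 50-base stretches shared with another gene made up 77.4% of Ifi211, 39.6% of Ifi205, 22.2% of Mndal and 18.7% of Ifi213. They made up 3.77% of Ifi203, 0.665% of Ifi204 and 0.462% of Aim2. Ifi211 shared its stretches with Ifi205 and Mndal, and Ifi213 with Ifi208 and Ifi206. The longest exact coding stretch, of 495 bases, was common to Ifi205 and Ifi211, which makes their single values the least certain. The longest one found in 3 members, of 182 bases, is identical in Ifi205 (chr1:174017465-174017646), Ifi211 (chr1:173901851-173902032) and Mndal (chr1:173862692-173862873), 711 to 719 bases from the transcript ends, and is printed because a read inside it fits all 3 genes equally, read on the minus strand:
Ifi205, Ifi211 and Mndal: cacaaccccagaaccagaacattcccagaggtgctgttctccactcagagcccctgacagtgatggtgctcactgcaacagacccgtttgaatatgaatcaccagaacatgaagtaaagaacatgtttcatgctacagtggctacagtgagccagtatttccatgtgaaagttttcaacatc
For that reason the levels over a whole library are given for the single genes and again for sums over genes that share sequence. Values by cluster, interferon bin or cell are given only for single genes or for all members together. The sources used here do not say how reads that fit several genes were counted.

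The 7 members together were 3.32-fold lower in diabetic than in non-diabetic cells (interval 3.24 to 3.40). It was 1189 CPM (18347 UMIs) in the non-diabetic and 358 CPM (10896 UMIs) in the diabetic library, a log2 ratio of -1.73 (-1.77 to -1.70). All 7 members were lower, 6 of them at least 2-fold, beside 6.54% of all genes measured, and Aim2 differed least. Intervals are 95%, cover counting error only and treat UMIs as independent, so they leave out the variation between cells, mice and libraries. CPM of 3′ UMIs count molecules and were not divided by gene length.

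Aim2, the inflammasome sensor, was at 34.5 CPM in the non-diabetic and 25.3 CPM in the diabetic library (532 and 769 UMIs), 1.37-fold lower (1.22 to 1.53). Ifi204, the member placed upstream of STING, was the most abundant in both, at 355 CPM and 139 CPM, and 2.56-fold lower (2.46 to 2.66). Its interval did not overlap that of Aim2, nor that of any other member. Among members with less settled roles, Ifi203, an interferon-inducible nuclear protein, was at 291 CPM and 60.5 CPM, 4.81-fold lower (4.56 to 5.08). Mndal, named for its likeness to the human myeloid cell nuclear differentiation antigen, was at 211 CPM and 51.2 CPM, 4.12-fold lower (3.87 to 4.38).

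The remaining 3 PYHIN members, Ifi211, Ifi205 and Ifi213, were each over 3-fold lower. Ifi211 was at 204 CPM and 57.1 CPM, 3.58-fold lower (3.374 to 3.796). Ifi205 was at 58.7 CPM and 18.1 CPM, 3.24-fold lower (2.91 to 3.61). Ifi213 was the scarcest in the diabetic library, at 35.3 CPM and 7.29 CPM, 4.84-fold lower (4.14 to 5.69), and its interval overlapped that of Ifi203. The make-up of the sum differed with them: Ifi203 gave 24.5% of the family UMIs in the non-diabetic and 16.9% in the diabetic library, Ifi204 29.8% and 38.7%, and Aim2 2.90% and 7.06%.

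**Figure D2:**
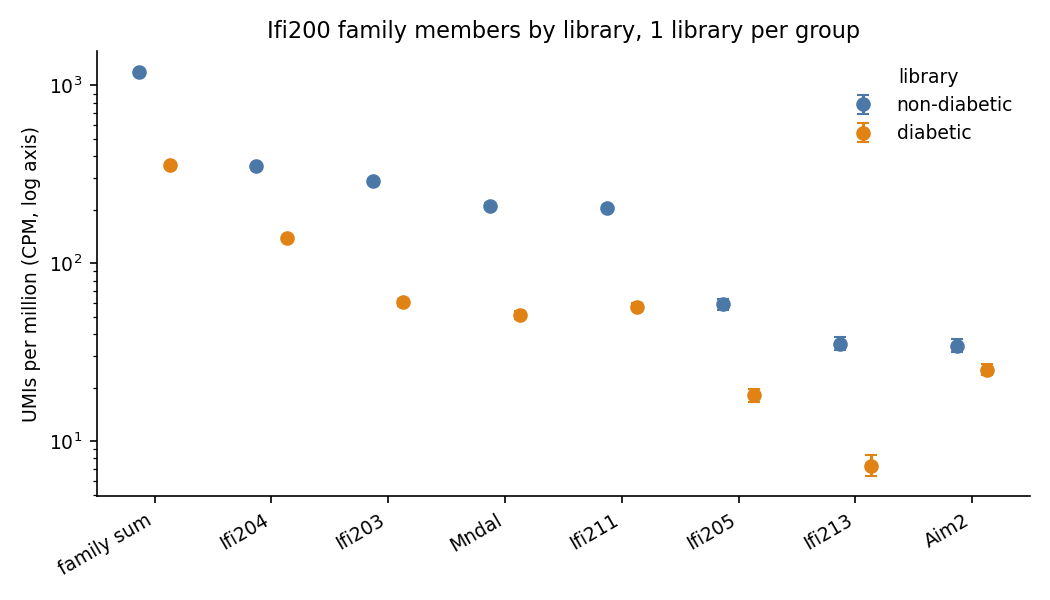
Level of the family sum and of each member in the non-diabetic (blue) and diabetic (orange) library, in CPM on a log axis, as points with 95% Poisson counting intervals (hidden by the points where narrow) and 1 library per group. The orange point is the lower of each pair, and the gap is narrowest for Aim2, at 34.5 and 25.3 CPM.

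Against all genes, 12337 had at least 20 UMIs over both libraries, and 6.54% of them were at least 2-fold lower and 8.56% at least 2-fold higher in the diabetic library. Of the 7 members, 6 were at least 2-fold lower and 0 at least 2-fold higher. The median log2 ratio was -1.84 over the members and 0.12 over all genes measured.

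Sums over genes that share sequence were lower as well. Ifi203, Ifi204, Ifi205, Ifi211, Mndal and the related Ifi207 together were at 1551 and 537 CPM, a log2 ratio of -1.53 (-1.56 to -1.50). Ifi213 with Ifi206 and Ifi208, which share its 3′ stretches, had a log2 ratio of -2.26 (-2.43 to -2.11), at 71.1 and 14.8 CPM. Of the 6 other Ifi200 genes listed, 5 were measured and all 5 were at least 2-fold lower, beside 6.54% of all genes. They ran from Ifi207 at 431 and 211 CPM (log2 -1.03) to Ifi206 at 28.3 and 5.39 CPM (log2 -2.39). Ifi202b, a family member without a pyrin domain whose expression is known to vary between inbred strains, had 1 and 5 UMIs.

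Within a cell, a member was found more often in the non-diabetic library. At an equal depth of 2000 UMIs per cell, 72.2% of 1086 non-diabetic cells (69.4 to 74.8) and 41.4% of 1730 diabetic cells (39.1 to 43.8) had a UMI of any member, leaving out 37 and 25 shallower cells. Without thinning the shares were 95.1% and 87.5%. UMIs of 3 or more different members were found in 22.5% (20.02 to 25.07) and 4.16% (3.27 to 5.21) of the thinned cells. How reads from shared stretches were counted is not given, so their effect on these shares is not known.

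For Aim2 the thinned shares were 7.0% (5.55 to 8.68) and 5.26% (4.26 to 6.42), with overlapping intervals, and the unthinned shares 32.9% and 32.1%. For Ifi203 they were 34.8% (32.0 to 37.7) and 8.90% (7.60 to 10.3), and unthinned 69.0% and 33.2%. Per cell, the family sum had a median of 7.78 UMIs per 10000 in the non-diabetic library, with a range of 0 to 84.9, and of 2.27 in the diabetic library, with a range of 0 to 87.8. The single highest cell of each library was thus at a like level, while the medians were apart. The upper quartiles were apart as well, at 16.3 in the non-diabetic and 4.55 in the diabetic library. The 13 diabetic neutrophil-like cells (median 4417 UMIs) had a family level of 39.1 CPM (4.74 to 141), from 2 UMIs in 2 cells. This was the only reading of free RNA available, and it assumes that these cells express no member. The non-diabetic library had 0 such cells, so free RNA could not be read there.

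The family was unevenly spread over the cells. The 112 non-diabetic cells with the most family UMIs held 38.5% of them, and the 176 highest diabetic cells held 43.3%. Ifi205 and Ifi213 were the most concentrated: the 112 highest non-diabetic cells held 76.5% and 78.3% of their UMIs, while Aim2 never exceeded 5 UMIs in a cell.

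Cells of both libraries were clustered together without any Ifi200 gene, giving 14 clusters that are called by number and leading genes. Cluster 4 had 6 of 8 classical monocyte markers and was led by the interferon-induced genes Mx1 and Oasl1, and cluster 5 (Cd177, Ly6c2) had 5 of the 8, so both are monocyte-like. Clusters 1 (Gpr34, Fcrls) and 9 (Cd163, Folr2) each had 9 of 10 macrophage markers and are macrophage-like. Cluster 8 (Klrd1, Cd209a) had 5 of 8 dendritic cell markers, and cluster 14 all 8 neutrophil markers. The other 8 stayed unnamed, and several clusters consisted almost wholly of 1 library, so that cluster and library cannot be told apart there.

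The family level ranged from 1602 CPM (1562 to 1642) in the non-diabetic cells of cluster 4 to 157 CPM (147 to 167) in the diabetic cells of cluster 3, over the 17 combinations of cluster and library with at least 30 cells. Below the former came the diabetic cells of cluster 4 at 1329 CPM (1223 to 1442) and the non-diabetic cells of cluster 2 (Sema3c, Inhba) at 1326 CPM (1290 to 1362), whose intervals overlap. They were followed by the non-diabetic cells of cluster 5 at 1201 CPM (1150 to 1254), whose interval overlaps that of the diabetic cells of cluster 4 but not that of cluster 2. The non-diabetic cells of cluster 12 (Ccl24, Qpct) at 881 CPM, of cluster 13, which is shallow and led by Gm42418, at 776 CPM and the diabetic cells of cluster 5 at 768 CPM came next, those of cluster 13 (679 to 884) overlapping both.

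Dendritic cell-like cluster 8 was intermediate, at 735 and 586 CPM in the non-diabetic and diabetic cells. The diabetic macrophage-like cells were lower, at 464 CPM (445 to 483) in cluster 1, which the non-diabetic cells of cluster 10 at 472 CPM (420 to 528) overlap, and 223 CPM (208 to 239) in cluster 9. Diabetic cells of clusters 7 (399 CPM), 11 (396 CPM) and 6 (370 CPM) had overlapping intervals. At the low end the diabetic cells of clusters 9 (223 CPM) and 10 (216 CPM) also overlapped. In the non-diabetic library cluster 4 made up 24.4% of cells and 34.0% of family UMIs, and in the diabetic library 1.77% of cells and 5.30% of family UMIs.

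The members did not keep the same order in every state. In most states Ifi204 was highest. In dendritic cell-like cluster 8 it was at 114 and 86.9 CPM, below Ifi203 at 243 and 172 CPM and Mndal at 205 and 144 CPM. Ifi203 was also above Ifi204 in the non-diabetic cells of cluster 12, at 249 against 237 CPM. The same held in those of cluster 13, at 242 against 160 CPM, with overlapping intervals in both clusters. In the diabetic cells of cluster 3 (Stfa3, Fst), Ifi203 was at 7.68 CPM, Mndal at 9.18 CPM and Ifi213 at 0.334 CPM (2 UMIs), whereas Ifi204 was at 66.8 CPM and Aim2 at 29.9 CPM. These cells also had 3 of the 8 neutrophil markers, S100a8, S100a9 and Mmp8, at 2-fold or more over other cells. Aim2 varied least, from 14.2 to 39.0 CPM over the 17 combinations, while Ifi203 varied from 7.68 to 356 CPM.

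**Figure D3:**
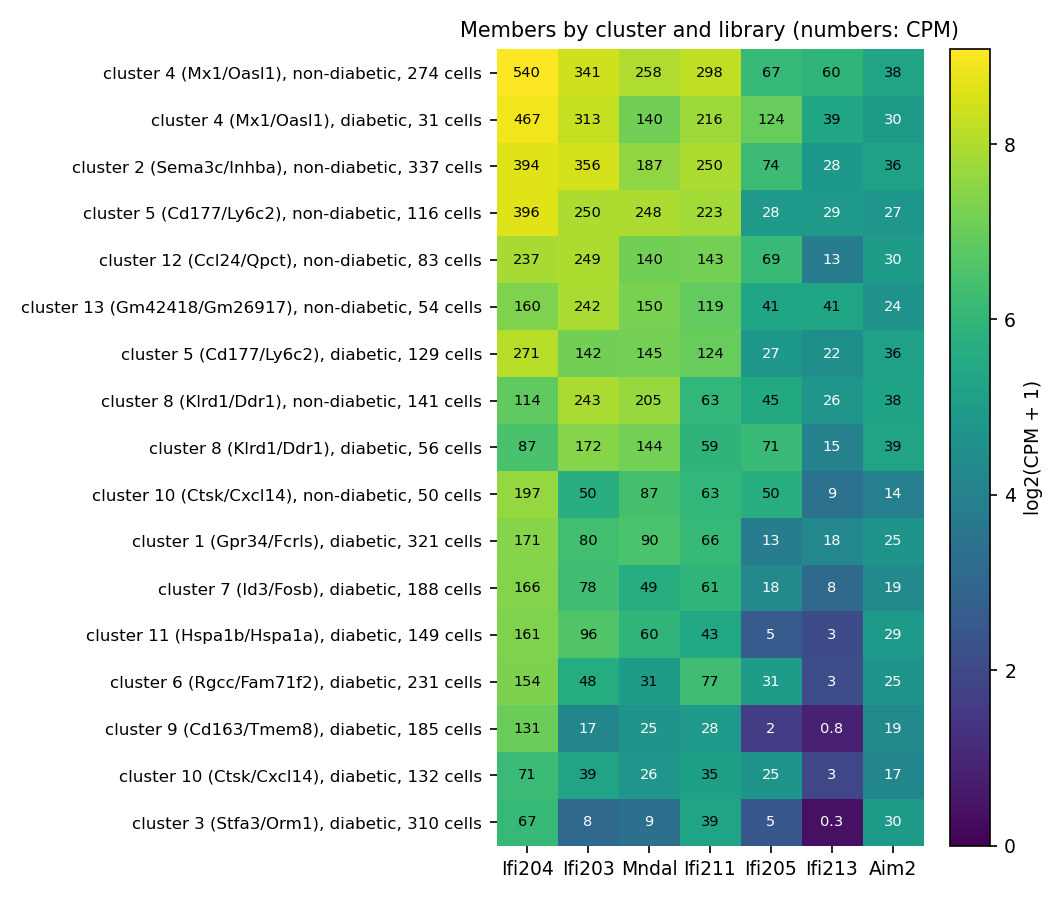
Level of each member (columns) in the 17 combinations of cluster and library with at least 30 cells (rows, ordered by the family sum), with colour for log2(CPM + 1) and CPM printed in each cell. Ifi203, Mndal, Ifi211 and Ifi213 are highest in rows near the top and far lower in the diabetic rows at the bottom. Ifi205 follows this order less closely. Its levels in the diabetic cells of clusters 6 and 10, in low rows, are near those of cluster 5 in both libraries, higher up. Aim2 stays between 14.2 and 39.0 CPM.

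In 4 clusters both libraries had at least 30 cells, and in each of these the difference was smaller than over all cells, which depended on the clustering. The log2 ratio of the family sum was -0.27 (-0.39 to -0.15) in cluster 4, -0.65 (-0.74 to -0.55) in cluster 5, -0.32 (-0.46 to -0.19) in cluster 8 and -1.13 (-1.33 to -0.93) in cluster 10 (Ctsk, Cxcl14), with a median of -0.48. The median was -1.51 over 9 clusters when each library was scaled per gene before clustering, and at resolution 0.5 the lowest of 5 clusters was at -2.39, beyond the -1.73 over all cells. Of the 13 clusters with cells of both libraries, several with very few, the family sum was lower in the diabetic cells of 12 and higher in those of cluster 6, where 4 non-diabetic cells stood against 231. In macrophage-like cluster 1, with 21 non-diabetic cells, it was 1942 CPM (1776 to 2119) against 464 CPM in the diabetic cells, a log2 ratio of -2.07 (-2.21 to -1.92).

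In clusters 4, 5 and 8, 0 of the 7 members were at least 2-fold lower, against 8.45%, 4.05% and 7.21% of all genes measured there, and 0 were at least 2-fold higher, against 5.79%, 3.41% and 3.02%. In cluster 10, 3 of the 6 measured members (Ifi204, Ifi205 and Mndal) were at least 2-fold lower against 8.23% of genes, and 0 were higher against 9.53%. Mndal and Ifi204 were lower in all 4 clusters with intervals below 0, Mndal with log2 ratios of -0.87 (-1.28 to -0.50), -0.77 (-1.002 to -0.549), -0.51 (-0.79 to -0.25) and -1.75 (-2.25 to -1.22) in clusters 4, 5, 8 and 10. Aim2 had log2 ratios of -0.30, 0.43, 0.06 and 0.20 there, and each interval spanned 0.

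Ifi205 stood apart from the other members in 2 of these states. It was higher in the diabetic cells of cluster 4, at 124 against 66.8 CPM (log2 0.91, 0.44 to 1.32), and of cluster 8, at 70.9 against 45.2 CPM (log2 0.66, 0.21 to 1.09). The diabetic values rest on few cells: 54 UMIs from 10 of 31 cells in cluster 4 and 71 UMIs from 13 of 56 cells in cluster 8. The share of cells with an Ifi205 UMI was 32.3% against 24.1% in cluster 4 and 23.2% against 24.8% in cluster 8. In cluster 10 it was lower, at 25.01 against 50.5 CPM (log2 -1.03, -1.62 to -0.37), and in cluster 5 its interval spanned 0. Ifi211, with which Ifi205 shares most 3′ stretches, was lower in the diabetic cells of cluster 4, at 216 against 298 CPM.

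**Figure D4:**
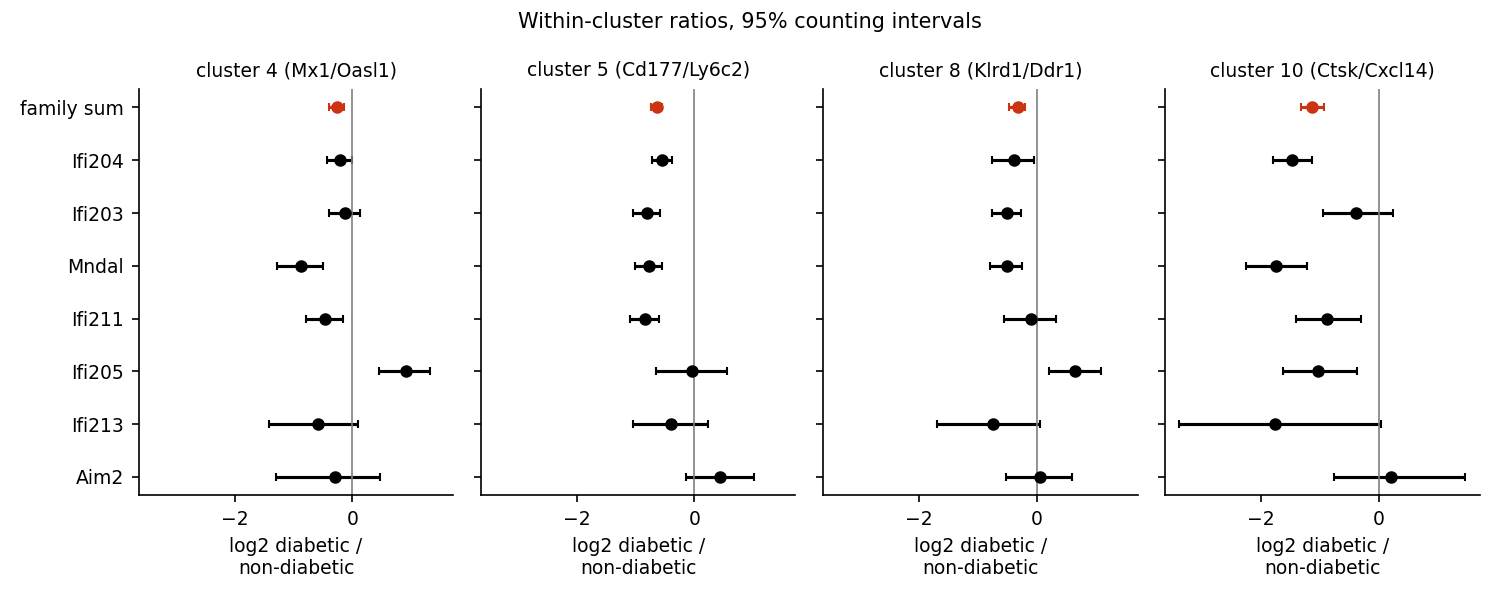
Log2 ratio of diabetic over non-diabetic CPM (x axis) for the family sum (red) and each member (black) in the 4 clusters where both libraries had at least 30 cells, with 95% counting intervals. The family sum lies below 0 in each panel, from -0.27 to -1.13, while Ifi205 lies above 0 in clusters 4 and 8 and the Aim2 intervals span 0.

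To set the libraries side by side at like interferon activity, cells thinned to 2000 UMIs were placed in bins by their UMIs of 16 interferon-induced genes such as Isg15, Mx1 and Rsad2, a list without Ifi200 genes. The family level was higher in each bin than in the one before, in both libraries. In cells with 0 UMIs of the list it was 602 CPM in the non-diabetic and 257 CPM in the diabetic library, a log2 ratio of -1.23 (-1.40 to -1.06). With 1-2 UMIs it was 912 and 448 CPM (log2 -1.02, -1.21 to -0.84), and with 3-5 UMIs 1500 and 1132 CPM (log2 -0.40, -0.70 to -0.12).

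In the upper bins the ratio was smaller. With 6-10 UMIs the levels were 2667 and 2273 CPM (log2 -0.22, -0.55 to 0.08), and with over 10 UMIs 4118 and 3818 CPM (log2 -0.10, -0.46 to 0.23), the diabetic values coming from 22 and 11 cells and both intervals spanning 0. In cells thinned to 5000 UMIs, with 44 and 37 diabetic cells in these bins, the intervals lay below 0, at log2 -0.23 (-0.44 to -0.03) and -0.28 (-0.43 to -0.14). Of non-diabetic cells 37.8% fell in the lowest bin and 4.70% in the highest, and of diabetic cells 70.9% and 0.636%. The bins are ranges and do not fully match the libraries: at full depth the list stood at 276 and 107 CPM in cells of the lowest bin and at 7614 and 6874 CPM in those of the highest.

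Aim2 was too scarce to follow into the upper bins. It was at 25.5, 39.9, 28.0, 71.4 and 98.0 CPM over the bins in non-diabetic cells, and at 27.3, 27.8, 17.5, 68.2 and 45.5 CPM in diabetic cells, where the upper 3 values rest on 2, 3 and 1 UMIs. In the lowest bin its log2 ratio was 0.07 (-0.63 to 0.88), while that of Ifi203 was -2.46 (-2.86 to -2.06) and that of Ifi204 -0.73 (-1.03 to -0.42).

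**Figure D5:**
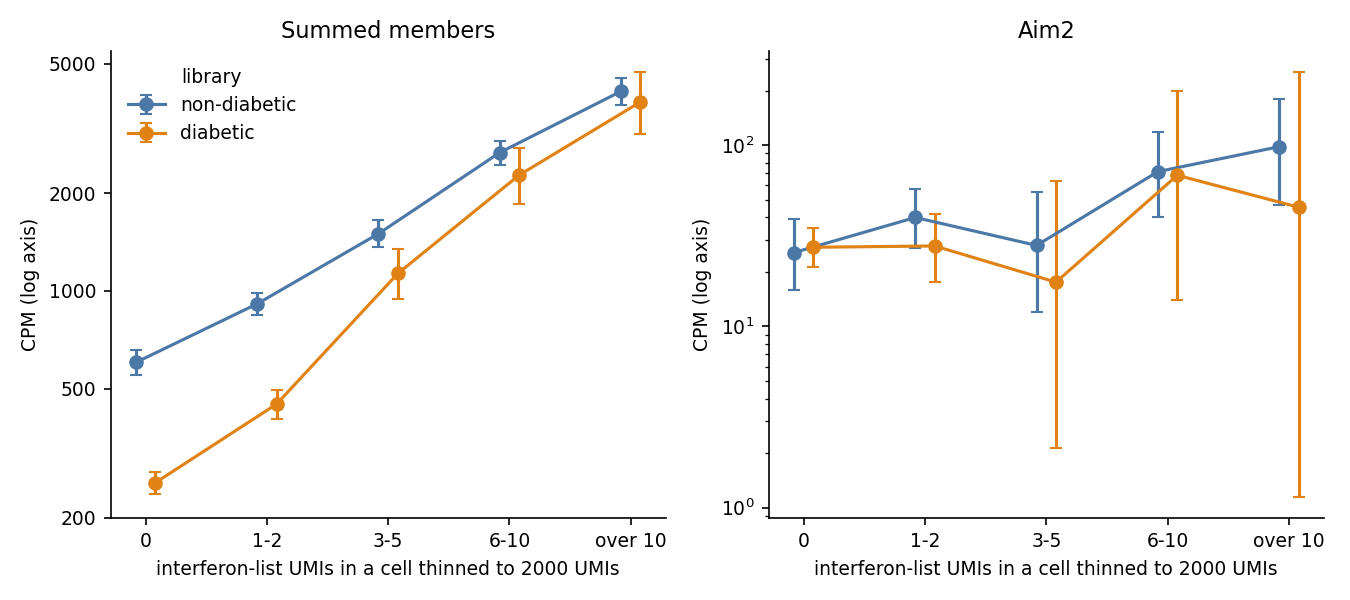
Level of the summed members (left) and of Aim2 (right) in CPM on log axes, in cells thinned to 2000 UMIs and binned by UMIs of 16 interferon-induced genes (x axis), with 95% counting intervals for the non-diabetic (blue) and diabetic (orange) library. The summed members are higher in each bin than in the one before, from 602 to 4118 CPM and from 257 to 3818 CPM, and the Aim2 intervals of the libraries overlap in every bin.

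Outside the family, the genes most like the family sum over the 17 combinations of cluster and library were Ifi27l2a (Pearson r of log2(CPM + 1) 0.94), Zbp1 (0.94), Irf7, Trim30a, Dhx58, Slfn5, Oas3, Sp100, Slfn8 and Parp14 (0.92), genes known as interferon-induced. Zbp1 is a sensor of Z-form nucleic acids and Irf7 a transcription factor of type I interferon genes. The 17 points come from 2 libraries and share their depth and clustering, so r is a description. The summed interferon-induced list had an r of 0.92 with the family sum.

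Among the members, Ifi203 with Mndal and Ifi213 with Mndal were most alike (r of 0.94 each), and Ifi204 was most like Ifi211 (0.89). Ifi203 and Mndal share 50-base stretches in the last 500 bases of both, whose part in r was not tested. Ifi204 and Ifi211 share none there but share 521 elsewhere, and their longest exact coding stretch has 223 bases. The part of these in r was not tested either. Ifi213 and Mndal share none at all. Aim2 was least like the rest, with r between 0.28 and 0.54, and 0.41 with the interferon-induced list. The 3 genes most like Aim2 were Zfp608 (0.80), Samsn1 and Ier2 (0.77), the last an immediate early gene. Those most like Ifi204 were Mefv (0.89), which encodes pyrin, Trafd1 and the Fc receptor gene Fcgr1 (0.87), and those most like Ifi213 and Mndal were led by Slfn5 (0.97 for both).

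Most genes of the inflammasome list were within 2-fold between the libraries. The list holds other sensors, such as Nlrp1b and Nlrp3, as well as genes that act downstream of Aim2. Of 15 measured, 2 were at least 2-fold lower (Nlrp1b at 6.74 and 0.854 CPM, Gbp5 at 10.0 and 2.43 CPM) and 0 higher, beside 6.54% and 8.56% of all genes, with a median log2 ratio of -0.29 against 0.12 over all genes. The adaptor Pycard was at 246 CPM in the non-diabetic and 213 CPM in the diabetic library, Casp1 at 58.5 and 49.8 CPM and Gsdmd, the pore-forming effector, at 72.1 and 55.8 CPM. Il1b, which encodes the cytokine precursor that caspase-1 cleaves, was at 5456 and 4663 CPM, and Nlrp3, another inflammasome sensor, at 374 and 261 CPM.

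Of 13 measured genes of cytosolic and endosomal DNA sensing, 3 were at least 2-fold lower and 1 at least 2-fold higher, beside 6.54% and 8.56% of all genes, with a median log2 ratio of -0.18. Those lower were Mb21d1 (cGAS, the enzyme whose product activates STING) at 22.2 and 10.5 CPM, Zbp1 at 125 and 46.2 CPM, and Ifnb1 (interferon beta) with 147 and 2 UMIs, a 116-fold lower level with a counting interval of 39.4 to 1208. Enpp1, which degrades the cGAS product, was higher, at 4.73 and 12.7 CPM. Tmem173 (STING) was at 56.1 and 33.3 CPM, Tbk1 at 62.5 and 55.3 CPM and Irf3 at 20.1 and 17.6 CPM, and Trex1 was listed at 0 in both libraries.

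Of 14 genes of interferon receptor signalling, 3 were at least 2-fold lower and 0 at least 2-fold higher, beside the same 6.54% and 8.56% of all genes, and the median log2 ratio was -0.29. Among them Irf7 was at 169 and 37.1 CPM and Stat2 at 50.1 and 20.1 CPM. The receptor subunit genes Ifnar1, at 77.7 and 119 CPM, and Ifnar2, at 180 and 186 CPM, did not show a lower level. Of the 16 interferon-induced genes themselves 14 were at least 2-fold lower and 0 higher, with a median of -2.10, and they summed to 1191 and 278 CPM. Immediate early and heat shock genes, which respond to cell handling, summed to 12807 and 10232 CPM, with 0 of 13 at least 2-fold lower or higher. Their part in the family's difference was not tested.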

How the data were processed

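Per the file headers, the authors counted UMIs with Cell Ranger 3.0.2 and deposited the raw counts of each gene in each barcode. The submitters' processing notes give the build as mm10. The annotation release and the handling of reads that fit several genes are not given in the sources used here. Groups followed the disease state in the labels. Barcodes were kept as cells at 500 or more genes and less than 10% mitochondrial UMIs. Scrublet, run through scanpy 1.11.5, marked 3 and 5 cells (0.267% and 0.285%), too few to show that doublets were found, and they were kept.

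Counts were summed per library or cluster and divided by the UMI total of the same cells. Ratios used sums with 0.5 added. Intervals are exact Poisson for CPM, Clopper-Pearson for shares and conditional exact binomial for ratios. Joint clustering used 2000 variable genes within library, 30 components, 15 neighbours and leidenalg 0.10.2 at resolution 1, with all Ifi200 genes removed and no batch correction. Genes with 20 or more UMIs over both libraries were measured, and ratios of 2-fold or more were counted. The ratio script was tested on simulated data. Transcripts came from GENCODE M21, where all 13 identifiers matched.

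The members and lists were chosen with earlier results of these data known. The genes named are all members, the other Ifi200 genes, genes of the pathway lists at 20 CPM or more in a library, the 10 genes most like the family sum and the 3 most like each member. List members under 20 CPM (Nlrp1b, Gbp5, Enpp1, Ifnb1 and Trex1) were named after their values were seen. Alternatives covered cell filters, doublets, clusters left out, cell weights, depth, scaling with edgeR 4.0.16 and DESeq2 1.42.0, clustering and count filters. Some single genes of the lists and clusters are not reported here.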

Additional observations from a re-analysis of the deposited data

Results flagged for a closer look

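Ifi205 differed between the libraries in opposite directions in different cell states, with intervals that did not span 0. Its log2 ratio of diabetic over non-diabetic CPM was 0.91 (0.44 to 1.32) in monocyte-like cluster 4 and 0.66 (0.21 to 1.09) in dendritic cell-like cluster 8, but -1.03 (-1.62 to -0.37) in cluster 10. The higher diabetic values came from 10 of 31 cells in cluster 4 and 13 of 56 cells in cluster 8. The difference between the states was not tested, since each library is 1 sample. Much of the Ifi205 transcript end is identical to Ifi211 and Mndal, and the part played by reads from these stretches was not tested.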

How the results depend on the processing

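The family sum stayed lower in the diabetic library under the 12 alternatives run, with a log2 ratio from -1.87 to -1.55 against -1.73. In each of them 6 of the 7 members were at least 2-fold lower. Of all genes measured, 6.54% were at least 2-fold lower in the main setting, 7.89% with edgeR TMM factors and 7.99% with DESeq2 size factors. That share was not computed for the other alternatives among the 12. The ratio of the family sum was -1.87 without the dendritic cell-like and neutrophil-like clusters, -1.68 as a mean of per-cell CPM, -1.65 in cells thinned to 2000 UMIs, -1.84 with edgeR TMM factors and -1.85 with DESeq2 size factors. In alternatives chosen after seeing the data it was -1.67 without cluster 2, -1.55 without cluster 3 and -1.61 without cluster 4. Aim2 ranged from -0.57 to -0.39. TMM factors moved the median of all genes from 0.12 to 0.01 and DESeq2 factors to -0.0006. The shares of cells with any member were 95.1% and 87.5% without thinning and 91.5% and 64.7% at 5000 UMIs. The median ratio within clusters depended on the clustering: -0.87 at resolution 0.5 (5 clusters), -0.62 at resolution 2 (2 clusters), -0.69 with the interferon-induced list removed (3 clusters), -1.51 with each library scaled per gene (9 clusters) and -0.89 with at least 15 cells per library (6 clusters), against -0.48. The family sum was lower, with an interval below 0, in every cluster compared under each. At 5000 UMIs the ratios in the interferon bins ran from -1.26 in the lowest to -0.28 in the highest, against -1.23 and -0.10 at 2000 UMIs. The cause of these shifts was not tested. Genes at least 2-fold lower numbered 2450 with no filter on counts and 432 at 100 or more UMIs, against 807, and genes at least 2-fold higher 2212 and 559, against 1056, as other numbers of genes were tested. No paired analysis was possible because each group is 1 library, and for the same reason no replicate could be left out. Depth limits single values within clusters, such as Aim2 with 9 non-diabetic and Ifi213 with 9 diabetic UMIs in cluster 10.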

Other observations

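The barcodes set aside by the cell filter also held family UMIs. The 903 non-diabetic barcodes were at 1062 CPM (1019 to 1107) and the 459 diabetic barcodes at 236 CPM (211 to 264), with medians of 2056 and 2239 UMIs per barcode. Both levels were below those of the kept cells of the same library, at 1189 and 358 CPM.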
